A study of Mus musculus with 6 samples.

Results

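The 7 genes described here encode proteins that bind zinc or carry zinc and manganese across cell membranes: the metallothioneins Mt1 and Mt2, the importers Slc39a4, Slc39a8 and Slc39a14, and the exporters Slc30a1 and Slc30a10. They were chosen by name, and each was read from the probe set that the platform annotation assigns to that symbol alone, taking the one with the highest mean over all 6 arrays. All 7 were measured, among 18193 genes with such a probe set. Levels came from Affymetrix mouse expression arrays, 1 per liver, in 3 livers with the genotype L Pex5 -/- (KO) and 3 WT livers, all from male mice aged 10 weeks. The labels give both groups the same mixed background, Alb-Cre Tac:[Sw]fBR. Alb-Cre is a recombinase that the albumin promoter switches on in hepatocytes, and the liver samples hold all liver cell types. Pex5 is the receptor that brings newly made enzymes into peroxisomes. The series title names AMPK, PGC-1 alpha and carbohydrate metabolism, and the sources used here name no question about metals.

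Metallothioneins are small, cysteine-rich proteins that hold zinc and copper in the cell, and the liver makes more of them when zinc, glucocorticoids or inflammatory cytokines rise. Much of the zinc response runs through the transcription factor MTF1, which binds short metal response elements in the promoters of Mt1, Mt2 and Slc30a1. Proteins of the ZIP family (Slc39a) bring zinc into the cytosol, and some of them also carry manganese or iron. Those of the ZnT family (Slc30a) take metal out of the cytosol, to the outside or into organelles.

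Slc39a4, Slc30a1 and Slc30a10 were lower in KO livers, and Mt1 and Mt2 stood more than 1.5 log2 units higher on average without passing the test. Of the 7 genes, 0 passed as higher and 3 as lower (limma, adjusted p under 0.05 over all 18193 genes), against 14.2% of all genes higher, 9.75% lower and 24.0% in either direction. All KO arrays lay above all WT arrays in 1 of the 7, Mt2, and below them in 4, against 22.1% and 22.6% of all genes and 44.8% for both together. The median difference of the 7 genes was -0.42, and that of all genes -0.055. The count of genes that passed was 1 without KO liver 2 or without KO liver 3, and 5 without WT liver 3. Levels are given on the log2 scale and differences as KO minus WT. Means carry the SD of 3 livers, and differences the SE from limma.

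The promoters of the metallothioneins are shown because the metal response elements lie there, and those of the 2 lower exporters because they allow a comparison. Each window is the RefSeq sequence on build GRCm38.p6, 250 bases before to 30 after the annotated transcript start, 5′ to 3′ on the strand of the gene. Capitals mark the core of the metal response element, searched as TGCACNC or TGCGCNC on both strands.
Mt1, chr8:94178839-94179118 (+): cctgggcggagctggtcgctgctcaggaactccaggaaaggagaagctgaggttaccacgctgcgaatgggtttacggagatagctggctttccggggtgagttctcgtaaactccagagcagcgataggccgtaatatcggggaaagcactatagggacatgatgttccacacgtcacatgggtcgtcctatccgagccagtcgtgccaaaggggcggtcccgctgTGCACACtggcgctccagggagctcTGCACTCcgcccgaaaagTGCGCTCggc
Mt2, chr8:94172368-94172647 (+): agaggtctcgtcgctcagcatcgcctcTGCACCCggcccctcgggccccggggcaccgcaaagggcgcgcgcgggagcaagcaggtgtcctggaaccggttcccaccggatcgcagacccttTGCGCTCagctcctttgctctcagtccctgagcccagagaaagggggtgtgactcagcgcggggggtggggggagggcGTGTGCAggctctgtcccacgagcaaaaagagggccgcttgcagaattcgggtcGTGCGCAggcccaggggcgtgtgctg
Slc30a1, chr1:191906531-191906810 (+): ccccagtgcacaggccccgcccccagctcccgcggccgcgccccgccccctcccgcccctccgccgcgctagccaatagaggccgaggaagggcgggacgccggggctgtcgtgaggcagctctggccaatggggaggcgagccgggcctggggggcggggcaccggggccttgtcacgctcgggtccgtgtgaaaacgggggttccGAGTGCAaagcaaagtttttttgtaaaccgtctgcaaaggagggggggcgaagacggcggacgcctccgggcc
Slc30a10, chr1:185454598-185454877 (+): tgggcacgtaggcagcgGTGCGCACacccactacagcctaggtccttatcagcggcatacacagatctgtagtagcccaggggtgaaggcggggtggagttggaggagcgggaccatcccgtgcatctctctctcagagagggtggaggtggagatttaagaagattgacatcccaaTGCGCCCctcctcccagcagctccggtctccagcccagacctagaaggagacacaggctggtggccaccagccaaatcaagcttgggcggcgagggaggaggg

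The Mt1 window held 3 cores, all on the strand of the gene. Their first bases lay 23 bases before the annotated start and at the 3rd and 21st base of the annotated transcript. The Mt2 window held 4 cores, 2 on each strand. Slc30a1 had 1 core, on the opposite strand, 43 bases before the start. Slc30a10 had 3 matches, of which 2 overlap on opposite strands. Over 32851 RefSeq promoter windows of the same length, 24.1% held at least 1 core, 1.7% at least 3 and 0.4% at least 4. Of the 2 windows of Slc39a8, which are not shown, 1 held 1 core and the other 0. A match describes the letters and does not show that MTF1 binds there. Positions are counted from the annotated start, whose use in these livers was not tested, and cores outside the window were not counted. In the same annotation Mt4, Mt3, Mt2 and Mt1 follow each other on chromosome 8, with only the noncoding gene Gm39227 among them, between Mt3 and Mt2.

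**Figure D1:**
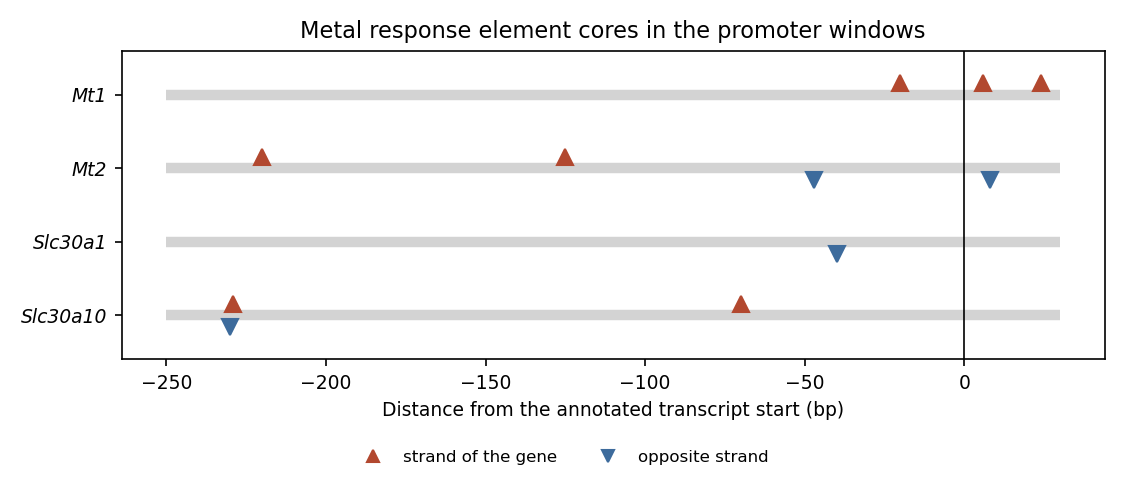
Positions of the metal response element cores in 4 promoter windows, as the distance of each core's centre from the annotated transcript start in base pairs, with upward triangles for the strand of the gene and downward triangles for the opposite strand. The 3 cores of Mt1 lie near the annotated start, and the 4 of Mt2 are spread over the window.

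Mt1, the more widely studied of the 2 liver metallothioneins, had levels of 10.50, 11.26 and 11.36 in KO livers 1 to 3, against 7.996, 8.45 and 10.85 in WT livers 1 to 3. The KO livers lay close together, while WT liver 3 stood far above the other WT livers and above KO liver 1, so the groups overlapped. The means were 11.04 ± 0.47 in KO and 9.10 ± 1.53 in WT (SD, n = 3 each), a difference of 1.94 ± 0.66 (SE), or 3.84-fold, that did not pass (limma, adjusted p = 0.0681). Its 95% interval ran from 0.41 to 3.47. Without WT liver 3 the difference was 2.82 and passed (adjusted p = 0.000832). It passed in 6 of 17 alternatives, over which the difference ran from 1.26 to 2.82 and the adjusted p from 0.000832 to 0.183.

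Mt1 had 2 probe sets. The one used carries the Affymetrix suffix s_at, for probes that can match more than one transcript, so signal from a related transcript cannot be told apart from that of Mt1. The other was far dimmer, with levels of 5.43, 5.93 and 5.72 in KO livers 1 to 3 and 5.18, 4.92 and 5.22 in WT livers 1 to 3. There all KO livers lay above all WT livers and WT liver 3 did not stand apart. The difference of 0.59 ± 0.15 on this probe set passed when every probe set was tested as its own row (limma, adjusted p = 0.0269), although its WT levels lay just above the background of 4.90, where differences are compressed.

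Mt2, which encodes the other metallothionein made by hepatocytes, followed the same pattern. Its levels were 10.05, 10.05 and 10.95 in KO livers 1 to 3, against 7.75, 8.18 and 9.97 in WT livers 1 to 3. WT liver 3 was again the highest WT liver, and it came within 0.081 log2 units of the lowest KO liver. The means were 10.35 ± 0.52 in KO and 8.63 ± 1.17 in WT (SD, n = 3 each). The difference of 1.72 ± 0.53 (SE), or 3.28-fold, fell just short of the threshold (limma, adjusted p = 0.0508; over 17 alternatives the lowest was 0.00208 and the highest 0.148). It passed in 7 of the 17: without WT liver 3, at 2.38 (adjusted p = 0.00208), with the replicate block (adjusted p = 0.00623), both control centrings (adjusted p = 0.00527 and 0.00804) and array weights (adjusted p = 0.00759), and narrowly with median centring (adjusted p = 0.0453) and with dim genes left out (adjusted p = 0.0484). KO liver 3 had the highest and WT liver 1 the lowest level of both genes.

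The metallothioneins made mainly outside the liver were not detected. Mt3, best known from brain, had a KO mean of 3.82 and a WT mean of 3.90, and Mt4, best known from stratified epithelia, 3.71 and 3.95. All of these lie under the background level of 4.90, which was set from olfactory receptor genes. Both were named after their values were seen.

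**Figure D2:**
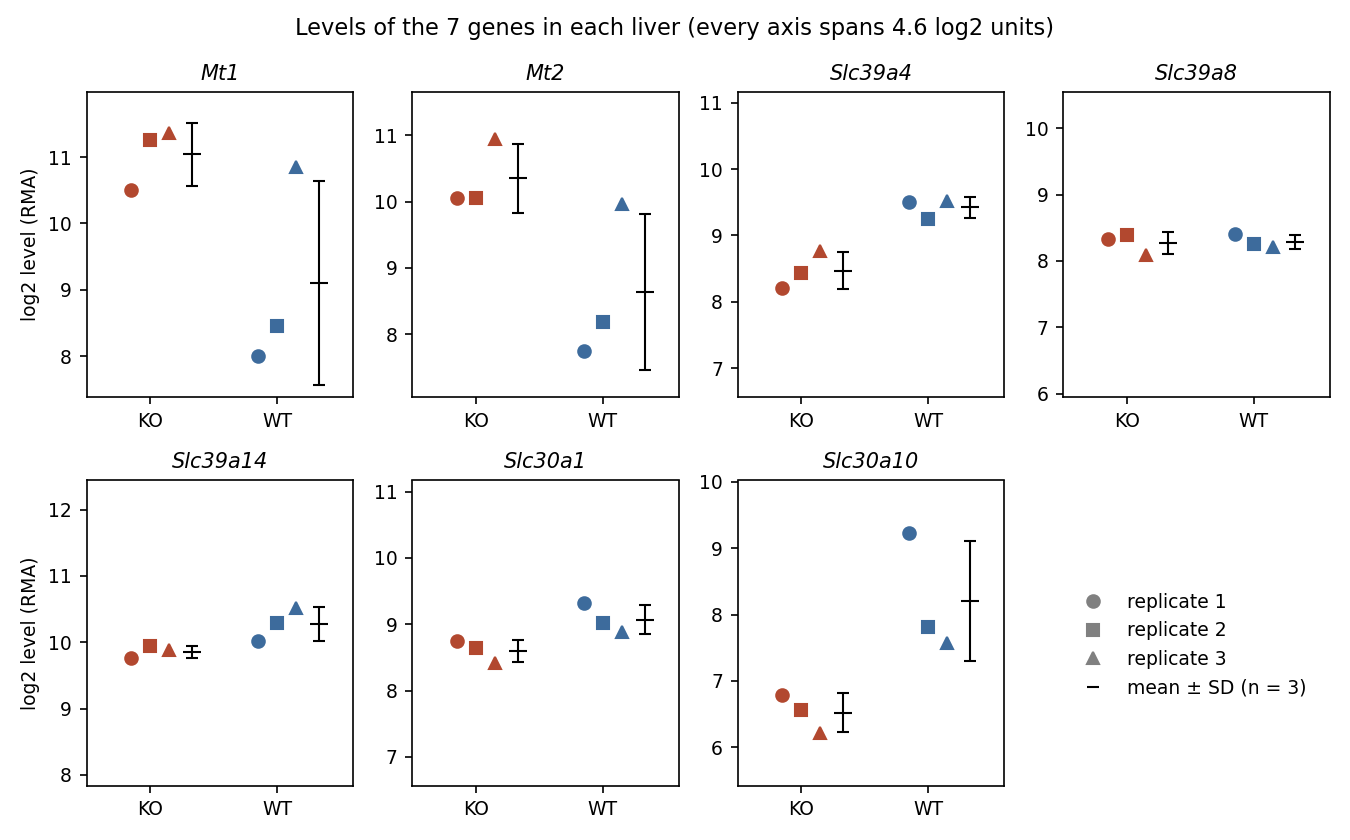
Log2 level of each of the 7 genes in every liver, KO left and WT right, with 1 symbol per replicate and the mean ± SD (n = 3) beside it, each axis spanning 4.6 log2 units. WT liver 3 stands at 10.85 for Mt1 and 9.97 for Mt2, near the KO livers, and does not stand apart for Slc39a4 or Slc39a8.

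Among the importers, Slc39a4 was lower in KO livers, and this was the call that held in every one of the 17 alternatives, with adjusted p-values from 0.00143 to 0.0358. Slc39a4 is the zinc importer best known for taking up dietary zinc in the intestine. Its levels were 8.20, 8.44 and 8.76 in KO livers 1 to 3, against 9.51, 9.24 and 9.52 in WT livers 1 to 3. The groups were apart by 0.48 log2 units at their nearest values. The means were 8.47 ± 0.28 in KO and 9.43 ± 0.16 in WT (SD, n = 3 each), and the level fell 1.94-fold (-0.96 ± 0.15, SE, limma, adjusted p = 0.00382). It has 1 probe set on the array.

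Slc39a14, which brings zinc, manganese and unbound iron into hepatocytes and is induced by interleukin-6, had levels of 9.76, 9.94 and 9.88 in KO livers 1 to 3, against 10.02, 10.29 and 10.52 in WT livers 1 to 3. All KO livers lay below all WT livers, by a small margin. The difference of -0.42 ± 0.14 (SE) did not pass (limma, adjusted p = 0.0596, and 0.0191 to 0.878 over 17 alternatives). It passed without WT liver 1, at -0.54 (adjusted p = 0.0191), and when its probe sets were averaged, at -0.39 (adjusted p = 0.0272). Its other 3 probe sets differed by -0.42, -0.46 and -0.28, and the first and second of these passed when every probe set was tested as its own row (limma, adjusted p = 0.0315 and 0.0133). Centring the arrays on bacterial control transcripts turned its sign, to 0.097.

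Slc39a8, a relative of Slc39a14 that carries zinc and manganese, showed no difference beyond its spread. Its levels were 8.33, 8.39 and 8.09 in KO livers 1 to 3, against 8.40, 8.25 and 8.20 in WT livers 1 to 3. The groups overlapped, with a difference of -0.014 ± 0.11 (SE) and a 95% interval from -0.27 to 0.25 (limma, adjusted p = 0.938). The sign was positive without KO liver 3 (0.076) or WT liver 1 (0.045). Its second probe set differed by -0.20 ± 0.16.

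Both exporters were lower in KO livers. Slc30a10, an exporter of manganese across the surface membrane, had levels of 6.79, 6.57 and 6.21 in KO livers 1 to 3, against 9.23, 7.81 and 7.56 in WT livers 1 to 3. WT liver 1 stood above the other WT livers, and all KO livers lay below all WT livers. The means were 6.52 ± 0.29 in KO and 8.20 ± 0.90 in WT (SD, n = 3 each), a level 3.21-fold lower in KO (-1.68 ± 0.40, SE, limma, adjusted p = 0.0191, and 0.00593 to 0.0663 over 17 alternatives). The call was lost without KO liver 2 (-1.70, adjusted p = 0.0634) or KO liver 3 (-1.52, adjusted p = 0.0663), and with trend and robust eBayes (adjusted p = 0.0564). Without WT liver 1 the difference was -1.16 and passed (adjusted p = 0.00593). The second probe set of Slc30a10 also passed, at 5.99, 5.66 and 5.02 in KO livers 1 to 3 and 8.63, 7.16 and 6.77 in WT livers 1 to 3, a difference of -1.96 ± 0.46 (limma, adjusted p over all probe sets = 0.0202).

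Slc30a1, which takes zinc out through the surface membrane and is induced by zinc through MTF1, had levels of 8.75, 8.64 and 8.42 in KO livers 1 to 3, against 9.31, 9.02 and 8.88 in WT livers 1 to 3. The groups did not overlap, and the highest KO liver came within 0.13 log2 units of the lowest WT liver. The difference was -0.47 ± 0.14 (SE), or 1.38-fold lower in KO, at the edge of the threshold (limma, adjusted p = 0.0444, and 0.0138 to 0.863 over 17 alternatives). The call was kept without WT liver 3 (adjusted p = 0.0293) and lost without any other single liver, with adjusted p-values of 0.0697, 0.111 and 0.131 without KO livers 1, 2 and 3 and 0.0934 and 0.0781 without WT livers 1 and 2. It was also lost with the arrays centred on their median (adjusted p = 0.064), when its 2 probe sets were averaged (-0.37, adjusted p = 0.0807) and with every probe set tested as its own row (adjusted p = 0.0504). After centring on the bacterial controls the value was 0.045, and with all spiked controls -0.027. In KO livers the lowest Slc30a1 and Slc30a10 and the highest Mt1 and Mt2 were all in liver 3, and in WT livers the highest Slc30a1 and Slc30a10 and the lowest Mt1 and Mt2 were all in liver 1.

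**Figure D3:**
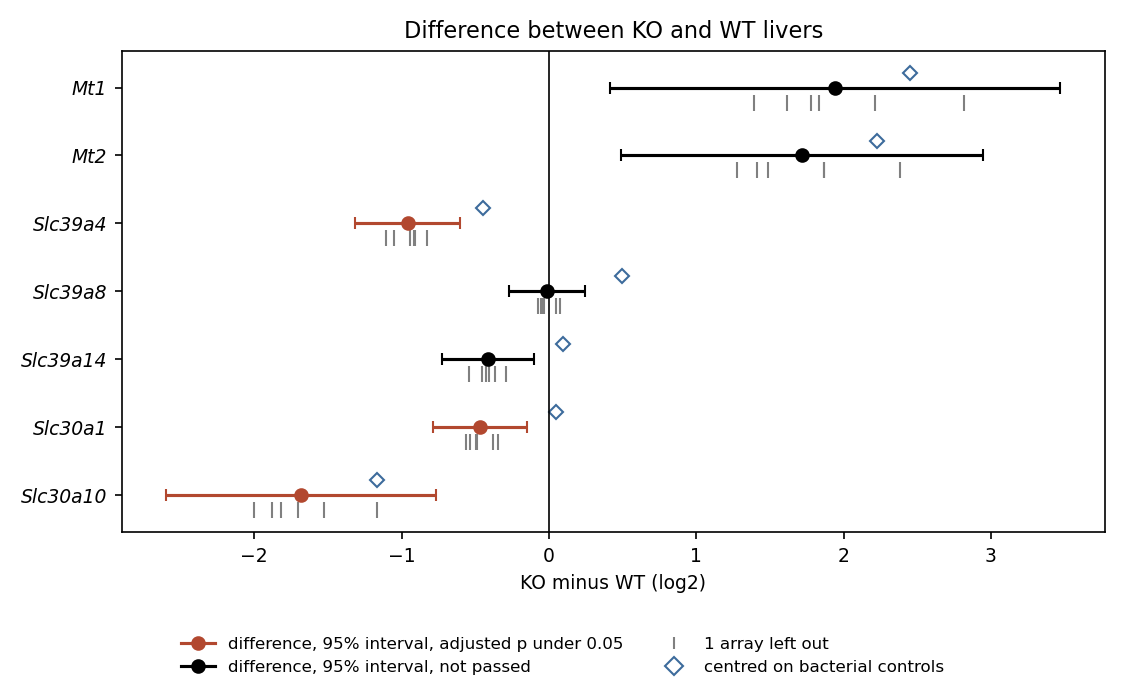
Difference between KO and WT livers in log2 units for each of the 7 genes, with its 95% interval, the values with 1 array left out as ticks and the value after centring on the bacterial controls as a diamond. Mt1 and Mt2 have the widest intervals. Slc39a8, Slc39a14 and Slc30a1 lie at or above 0 on the control-centred scale, while Slc39a4 and Slc30a10 stay below it.

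These directions are relative to the bulk of the genes. Bacterial transcripts added as controls were dimmer by 0.51 on the KO arrays (exact two-sided permutation p = 0.1, the smallest that 3 against 3 arrays allow), and centring on them adds 0.51 to every difference, or 0.44 with all 45 spiked controls in place of the 38 bacterial ones. On the bacterial scale Mt1, Mt2 and Slc39a8 passed as higher (2.45, 2.23 and 0.50) and Slc39a4 and Slc30a10 as lower (-0.45 and -1.17). The targeted gene Pex5 had levels of 9.22 ± 0.11 in KO and 9.04 ± 0.14 in WT (SD, n = 3 each, limma, adjusted p = 0.262), and since no label places its probe sets relative to the deletion, it does not check the labels. Hepatocyte markers were bright in all livers, and their mean level was 13.95 to 14.03 in KO and 13.90 to 14.01 in WT, with 0 of 6 passing. After centring, 6 of 6 were higher with the bacterial and 5 of 6 with all spiked controls. Of 7 Kupffer cell and macrophage markers 0 passed, with mean levels of 7.63 to 8.10 in KO and 7.24 to 8.47 in WT. WT liver 3 was the lowest of all livers in this list, and without it 2 passed as lower in KO. Of 6 sinusoidal endothelial markers 1 was higher and 2 were lower, against 14.2% and 9.75% of all genes. The higher one was Lyve1, whose WT arrays were below background. Of 6 stellate cell markers 2 were lower, and of 4 bile duct markers 1 was lower, Krt19, whose KO arrays were below background. These calls rest on few arrays: 0 sinusoidal markers were lower without KO liver 1, 2 or 3 or WT liver 1 and with median centring, and 1 without WT liver 2 or 3. The stellate count was 1 without any single liver other than WT liver 3, and Krt19 was lost without KO liver 1 or 3 or WT liver 1 or 3. Of 4 T and NK cell, 3 B cell, 3 neutrophil and 3 erythroid markers measured, 0 passed. Fewer cells of a type and less RNA per cell cannot be told apart in whole liver, and the part of these markers in the metal genes' differences was not tested.

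Of the 11 other ZIP genes 2 were lower and 0 higher, against 9.75% and 14.2% of all genes, with a median difference of 0.02. Slc39a2, a zinc importer of the surface membrane, had levels of 4.25, 4.05 and 4.34 in KO livers 1 to 3, all under the background of 4.90, against 6.94, 7.43 and 7.31 in WT livers 1 to 3. It was at least 5.02-fold lower in KO, with the KO arrays set to the background (limma, adjusted p = 1.30e-05). Slc39a1, a zinc importer found in many tissues, was lower by a difference of -0.67 ± 0.10 (limma, adjusted p = 0.00276). Of the 8 other ZnT genes 1 was lower and 0 higher, with a median of 0.004. This was Slc30a5, which loads zinc into the secretory pathway (-0.52 ± 0.13, limma, adjusted p = 0.0215), and its call was lost without KO liver 1 or 2 or WT liver 2 or 3. After centring on the bacterial controls, 7 of the 11 ZIP genes were higher and 1 lower, and 5 of the 8 ZnT genes higher and 0 lower.

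**Figure D4:**
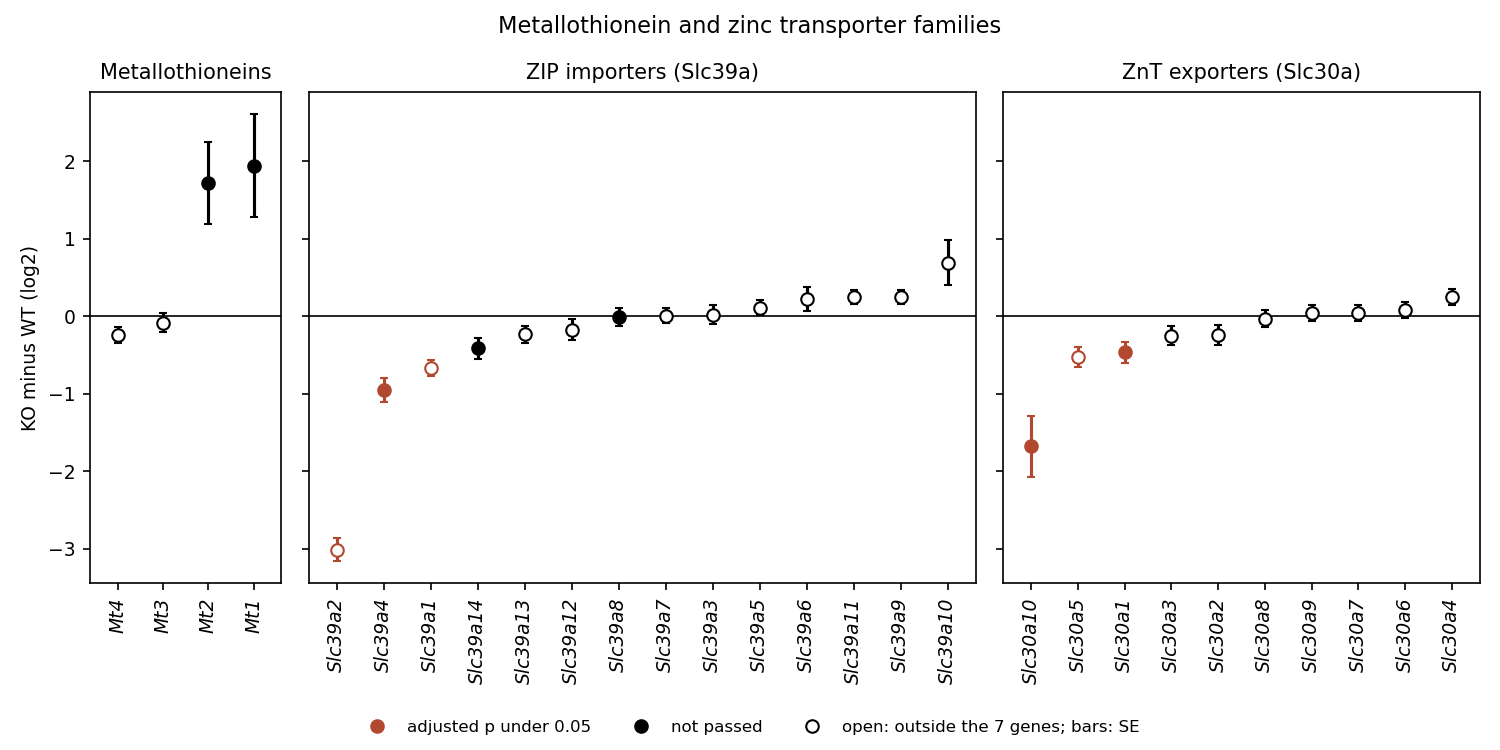
KO minus WT difference in log2 units with its SE for every measured metallothionein, ZIP and ZnT gene, with filled symbols for the 7 genes described here, open symbols for the others, and red for an adjusted p under 0.05. The genes that passed all lie below 0, from Slc39a2 at -3.01 to Slc30a1 at -0.47, and Mt1 and Mt2 stand alone at the top.

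Mtf1 itself differed by -0.038 ± 0.089 (limma, adjusted p = 0.778). The list of MTF1 and its targets, with 9 measured genes, includes Mt1, Mt2 and Slc30a1. Of these 9, 0 were higher and 1, Slc30a1, was lower, against 14.2% and 9.75% of all genes, with a median of 0.52. Without WT liver 3 there were 2 higher and 1 lower, without KO liver 3 or WT liver 1 there was 1 higher, and the call of Slc30a1 moved as given above. With array weights 4 were higher, with the replicate block 2, and after centring on the bacterial controls 8 were higher and 0 lower, with a median of 1.04. The largest differences among the others were those of Ndrg1 (0.80 ± 0.32) and Slc39a10, a zinc importer repressed by zinc (0.69 ± 0.29), and neither passed. Slc39a10 had levels of 7.07, 7.55 and 6.23 in KO livers 1 to 3, against 6.28, 6.14 and 6.36 in WT livers 1 to 3, and passed without KO liver 3 (1.05, adjusted p = 0.00772, from 0.00378 to 0.322 over 17 alternatives).

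Other metal genes moved in both directions. Of 15 copper genes 3 were higher and 3 lower, against 14.2% and 9.75% of all genes, with a median of -0.13. Cox17, which hands copper to cytochrome oxidase, and Commd1, which takes part in copper export, were higher (0.93 ± 0.09 and 0.68 ± 0.09), and the metalloreductases Steap4 and Steap3 were lower (-1.09 ± 0.16 and -0.50 ± 0.12). The number lower was 1 without KO liver 2 or WT liver 1, and the call of Steap3 was lost without either of these or WT liver 2. The copper exporters of the liver, Atp7b and its relative Atp7a, differed by 0.006 and 0.12 and did not pass. Of 8 manganese and divalent metal genes outside the 7, 0 were higher and 2 lower, the manganese-dependent enzymes Arg1 (-0.61 ± 0.13) and Glul (-0.70 ± 0.19). The call of Glul was lost without KO liver 1 or 2 or WT liver 2 or 3. After centring on the bacterial controls, the copper list had 9 higher and 1 lower, and the manganese list 4 higher and 0 lower.

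Because glucocorticoids, interleukin-6 and oxidative stress are known inducers of metallothioneins, genes that respond to each were counted as well. For these counts, the shares over all genes were 14.2% higher and 9.75% lower. Of 11 measured glucocorticoid-responsive genes 2 were higher and 4 lower, with a median of -0.65. Sgk1, a kinase, and Fkbp5, a chaperone of the glucocorticoid receptor, were higher (2.16 ± 0.25 and 1.03 ± 0.26), and Hsd11b1, which regenerates active glucocorticoid, and Dusp1, a phosphatase of MAP kinases, were lower (-1.22 ± 0.11 and -1.15 ± 0.34). The call of Hsd11b1 held in 17 of 17 alternatives, while that of Dusp1 was lost in 10, among them without any single liver other than WT liver 2 (limma, adjusted p up to 0.126), and that of Fkbp5 without any single liver other than WT liver 3 (adjusted p up to 0.0911). The number lower was 2 without KO liver 1 or KO liver 2, the number higher was 1 without any single liver other than WT liver 3, and the median was -0.19 without WT liver 3. Of 21 genes of the interleukin-6 and acute phase list 1 was higher and 13 lower, with a median of -0.50. The counts were the same without WT liver 3, and without WT liver 2, 2 were higher. The number lower was 11 without KO liver 1 or with trend and robust eBayes, 12 with averaged probe sets and 14 with array weights. Saa1, Saa2 and Saa3, acute phase serum amyloids, were lower (-3.39 ± 0.54, -3.20 ± 0.69 and -2.99 ± 0.16), and Apcs, another serum amyloid protein, was higher (2.18 ± 0.23). The call of Saa2 was lost without KO liver 2 (limma, adjusted p = 0.056), and near-identical sequences can share signal between Saa1 and Saa2. Of 10 NRF2 targets and regulators 5 were higher and 0 lower, with a median of 0.62, led by Nqo1 and Srxn1 (2.79 ± 0.14 and 2.69 ± 0.18). Of 7 measured heat shock genes 1, Hspb1, was higher (1.08 ± 0.24) and 0 lower (1 lower without KO liver 3). After centring on the bacterial controls, the glucocorticoid list had 5 higher and 1 lower, the acute phase list 4 higher and 8 lower with a median of 0.013, and the NRF2 list 9 higher and 0 lower.

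Of the WT livers, WT liver 3, with its high metallothioneins, ranked highest in most listed glucocorticoid genes and lowest in most listed acute phase genes. This was looked at after the values were seen, and the genes given here were picked then. Fkbp5 had levels of 8.50, 8.72 and 8.62 in KO livers 1 to 3, against 7.17, 7.30 and 8.26 in WT livers 1 to 3, so that WT liver 3 lay nearest to the KO livers. Tsc22d3, another glucocorticoid-induced gene, had levels of 9.68, 9.70 and 9.71 in KO livers 1 to 3, against 10.31, 10.56 and 11.32 in WT livers 1 to 3, and there WT liver 3 lay farthest from them. Zbtb16 and Per1 were also highest in WT liver 3, at 8.52 and 7.97. In the rest of the glucocorticoid list, Sgk1, Hsd11b1, Tat and Klf9 were also highest among the WT livers in WT liver 3. The margin was small for Hsd11b1, at 13.10 against 13.08 and 13.00 in WT livers 1 and 2. It was small for Tat too, at 13.18 against 12.84 and 13.17. The exceptions were Dusp1, highest in WT liver 1 at 10.67, and Errfi1 and Nr3c1, highest in WT liver 2 at 13.09 and 9.30. Saa1 had levels of 8.78, 8.80 and 9.32 in KO livers 1 to 3, against 13.35, 12.78 and 10.95 in WT livers 1 to 3, the lowest WT value being that of WT liver 3. Saa2 ordered the WT livers in the same way. Except for Il6ra, Cebpb and Cebpd, the other genes of the acute phase list were also lowest among the WT livers in WT liver 3. Orm2, for example, was at 8.03 there. The margin was small for some, such as Fgg, with all WT livers between 13.85 and 13.93. Il6ra, Cebpb and Cebpd were instead highest among the WT livers in WT liver 3, at 8.70, 11.36 and 8.01. How these genes bear on Mt1 and Mt2 in WT liver 3 was not tested.

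**Figure D5:**
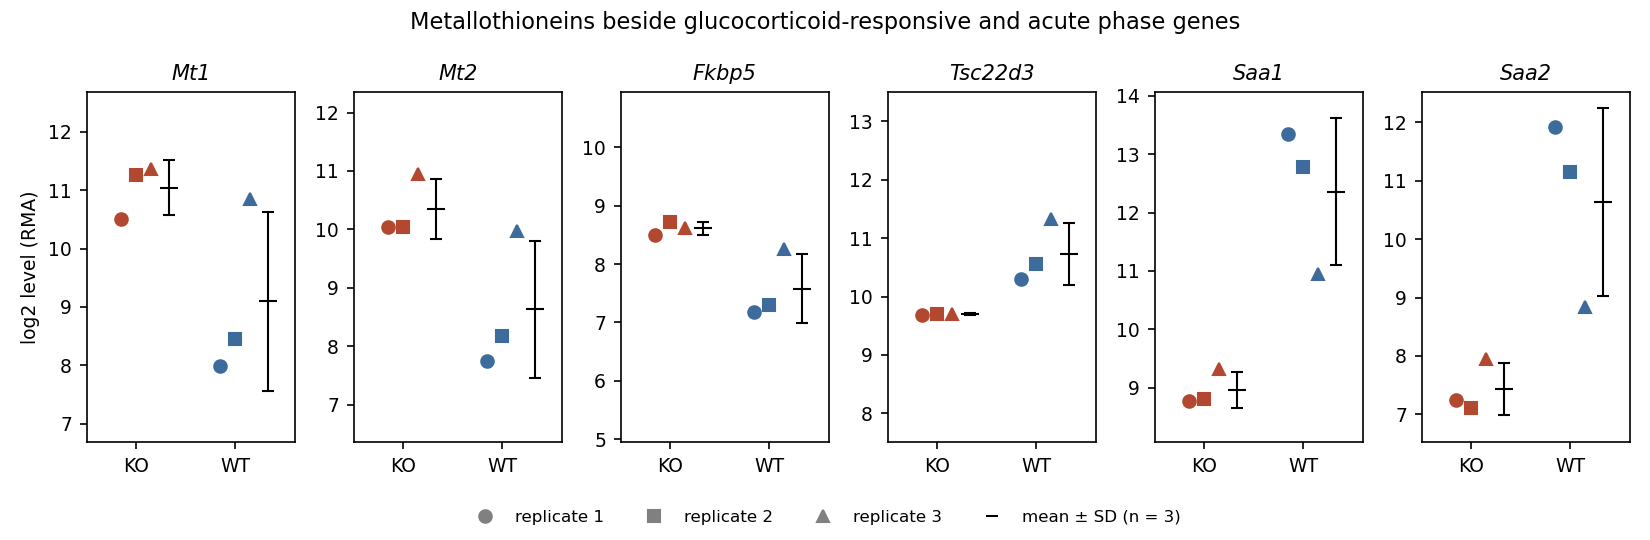
Log2 level of Mt1, Mt2, Fkbp5, Tsc22d3, Saa1 and Saa2 in every liver, KO left and WT right, with the mean ± SD (n = 3), each axis spanning 6 log2 units. WT liver 3 (triangle) is the highest WT liver for Mt1, Mt2, Fkbp5 and Tsc22d3 and the lowest for Saa1 and Saa2.

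For the 3 genes that passed, the genes with the most similar profile were sought among 12025 others above background, by the root mean square distance between mean-centred log2 levels over the 6 arrays. Nearest to Slc39a4 were Elobl, Pdcd4 and Serpinf2, at distances of 0.097, 0.11 and 0.13 log2 units. For Slc30a1 these were Tcf21, Fam149a and Inhba, at 0.023, 0.056 and 0.058. Slc30a10, whose level varied more among the WT livers, had its nearest profiles at larger distances, in Slc26a4 (0.27), Pde9a (0.28) and Celsr1 (0.30). Slc26a4 was above background on 0 of 3 KO arrays and Celsr1 on 2 of 3, so their KO levels, and these distances, are limited by the floor. This is a description of 6 arrays, where the difference between the groups makes up much of every profile.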

How the data were processed

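Each liver gave 1 Affymetrix mouse array from Trizol-extracted total RNA, per the labels' protocols. The authors deposited log2 values for every probe set, and RMA is the one tool in the submitters' processing notes (version not given in the sources used here). The log2 scale was inferred from their range. RMA usually includes a step that gives all arrays one distribution, so levels are relative to the bulk of transcripts. Of 45101 probe sets, 64 are controls, 34945 have 1 symbol in the platform annotation, 932 have several, and 9160 are unnamed here. Gene identifiers changed 0 symbols against GRCm38.p6.

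The background level is 4.90, the 95th percentile over 38 olfactory receptor genes of their mean. For the 18193 genes, KO and WT were compared in limma 3.58.1 (R 4.3.3, lmFit and eBayes, two-sided, Benjamini-Hochberg over all genes, no filter), after the fit was tested on simulated data. The series design calls the arrays biological replicates, and their number limits the precision.

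The members and lists were chosen with earlier results of these data known. The bacterial controls (38 probe sets) and the olfactory genes were settled after values under other selections had been seen. Named genes are the 7 members, up to 4 changed genes of each pathway list with the largest difference (up to 2 where none changed), changed genes of the metallothionein, ZIP and ZnT families, Pex5, and the 3 nearest profiles of each changed member. Mt3, Mt4, Mtf1, Atp7a, Atp7b, Krt19, Tsc22d3, Zbtb16, Per1, Il6ra, Cebpb and Cebpd fall outside this rule and were named after their values were seen. The same holds for Lyve1, Orm2, Fgg, Errfi1, Nr3c1, Tat and Klf9. Promoter sequences are RefSeq's on GRCm38.p6, which matched 5 of the 7 members.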

Additional observations from a re-analysis of the deposited data

How the results depend on the processing

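Alternatives were a replicate block, quantile normalization, centring on the array median or the bacterial controls, a filter on dim genes, other uses of the probe sets, trend and robust eBayes, array weights, a threshold of 0.01 and leaving out each array. Centring on all spiked controls, and every alternative for genes outside the 7 and for the lists, was added after the data were seen; the control set had by then been changed more than once, and the sign of Slc30a1 depends on it. The cause of a change was not tested. Slc39a4 kept its direction and call in 17 of 17, from -1.11 to -0.83 with 1 array left out. Mt1 also passed with the replicate block (1.94, adjusted p = 0.0253), bacterial or all spiked control centring (2.45 and 2.38), the mean of its probe sets (1.26) and array weights (2.25), and ran from 1.39 to 2.82 with 1 array left out. Mt2 passed with the replicate block (1.72, adjusted p = 0.00623), median centring (1.75), bacterial or all spiked control centring (2.23 and 2.16), the filter (1.72) and array weights (1.96), and ran from 1.28 to 2.38. Slc39a14 passed with the replicate block (-0.42, adjusted p = 0.0461), quantile normalization (-0.47), the mean of its probe sets (-0.39), trend and robust eBayes (-0.42) and array weights (-0.40), turned to 0.097 and 0.024 with bacterial and all spiked control centring, and ran from -0.54 to -0.29. Slc39a8 turned to 0.025 with median and 0.50 and 0.43 with bacterial and all spiked control centring, and ran from -0.074 to 0.076 with 1 array left out, being positive without KO liver 3 (0.076) or WT liver 1 (0.045). Slc30a1 lost its call with median centring (-0.43), the mean of its probe sets (-0.37), every probe set as its own row (-0.47) and the stricter threshold (-0.47), turned to 0.045 with bacterial control centring, was -0.027 without passing with all spiked controls, and ran from -0.56 to -0.35. Slc30a10 lost it with trend and robust eBayes and the stricter threshold (-1.68 each), and ran from -2.00 to -1.16. The number of the 7 that passed was 3, against 6 with the replicate block, 5 with either control centring, 6 with array weights, 1 at the stricter threshold and 1 to 5 with 1 array left out. Over all genes 4363 passed (59.3% higher), against 13379 with bacterial and 11561 with all spiked control centring (96.9% and 95.9% higher), 2017 at the stricter threshold and 2385 to 4103 with 1 array left out, the lowest without KO liver 2 (2385) and KO liver 1 (2588). Quantile normalization and median centring left 51.8% and 66.2% higher. Bacterial control centring turned Steap3 (0.014), Tcf21 (0.050) and Fam149a (0.073), the last also with all spiked controls (9.90e-05). The replicate block changed no other call among the 7. The numbers are not taken as pairs: deviations of same-numbered arrays correlated at 0.105, -0.018 and 0.105, and 3 of 6 arrays correlated best with their own number. Dim levels limit Mt3, Mt4, Slc39a2, Slc26a4, Celsr1, Krt19 and Lyve1.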
